A study of Mus musculus with 24 samples.

Results

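The 10 genes described here encode the enzymes that rebuild NAD from nicotinamide (Nampt, Nmnat1, Nmnat3), the enzymes that use NAD up (the sirtuins Sirt1, Sirt3, Sirt5 and Sirt6, Parp1 and Cd38) and the enzyme that takes nicotinamide out of the cycle (Nnmt). They were chosen by name: every probe carrying one of these gene names in the scanner files was taken, which gave 13 of the 55681 probes and 10 of the 34787 genes on the array. Nmnat3, Sirt6 and Nnmt had 2 probes each and the other members 1. Liver and white adipose tissue came from mice carrying human PER1 with the amino acid change S714G, the mutant, and from mice carrying human PER1 with the unchanged residue S714, the control, so both genotypes carried a human PER1. The protein PER1 represses the clock activators in the daily feedback loop. All mice were males of 2 months on a C57BL/6 background, held in light-dark cycles for 10 days and sampled at ZT13 or ZT1, hours counted from lights on. The groups were liver S714G at ZT13, liver S714 at ZT13, liver S714G at ZT1, liver S714 at ZT1, and the same 4 groups in white adipose, with 3 arrays each and 24 in all. The labels do not name the promoter that drives human PER1 or the number of lines, and they do not say that the 2 tissues of a number came from 1 animal.

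NAD is a carrier of electrons and also a substrate that sirtuins, poly-ADP-ribose polymerases and CD38 cleave, releasing nicotinamide. Cells recycle that nicotinamide in a salvage pathway: NAMPT makes nicotinamide mononucleotide, its rate-limiting step, and the NMNAT enzymes turn this into NAD. In mouse liver the clock activators CLOCK and BMAL1 drive Nampt transcription, NAD oscillates over the day, and SIRT1 in turn acts on clock proteins.

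Values are log2 signals relative to the 75th percentile of the same array, and differences are on that log2 scale, so a level of 1 probe cannot be set against that of another. Differences were tested with limma over all genes of a tissue, and a gene passed where its Benjamini-Hochberg adjusted p was under 0.05. The scanner software called 45.5% to 71.2% of spots per array well above background. The arrays lay on 3 slides of 8, and slide 1 stood apart: the median signal of its arrays ran from -3.38 to -3.03, against -3.92 to -3.50 on slide 2 and -3.81 to -3.57 on slide 3. Slide 1 held the S714 ZT1 arrays of both tissues and replicates 1 and 2 of adipose S714G at ZT1. Slide 2 held replicate 3 of that group, liver S714G at ZT1, adipose S714 at ZT13 and replicate 1 of liver S714 at ZT13, and slide 3 held the others. Both genotypes shared a slide only in liver at ZT13 (slide 3) and in adipose at ZT1 (slide 1). For comparisons that include slide 1, the counts of members and of other NAD genes called are also given with slide as a fixed block over all 24 arrays. There the step between slides 1 and 2 rests on the 3 arrays of adipose S714G at ZT1, the 1 group that lay on both. The fit takes that step to be the same in liver and white adipose. All 5 hepatocyte markers were well above background on every liver array and all 6 adipocyte markers on every adipose array, but the summed hepatocyte markers also ran, on the log2 scale, from 3.76 to 5.38 in adipose S714G at ZT13, 4.56 to 6.35 in adipose S714 at ZT13, -0.30 to 6.20 in adipose S714G at ZT1 and 6.25 to 8.58 in adipose S714 at ZT1, against 9.24 to 10.25 in liver. In whole tissue, fewer cells of a type and less RNA per cell cannot be told apart.

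Nampt, which makes nicotinamide mononucleotide, had the largest genotype difference of the 10 members in liver at ZT13. There its log2 signal was 2.38, 2.24 and 2.24 on the S714G arrays, against 3.42, 3.92 and 3.69 on the S714 arrays (probe on chromosome 12, 33535475 to 33535534, mouse build mm9). The S714G values lay below every S714 value. The difference was -1.39 ± 0.18 (SE), a 2.62-fold lower signal in S714G (limma, adjusted p = 0.00303). Within slide 3, where 3 S714G and 2 S714 arrays lay side by side, it was -1.51 ± 0.13 (limma, adjusted p = 0.00939). With slide as a block it was -1.51 ± 0.18. Liver S714 at ZT13 is the only group on both slides 2 and 3, so these are the same estimate and not separate checks. The lower signal passed in all 19 fits made of this comparison, between -1.51 and -1.25. Of the cell type markers, 0 of 5 for hepatocytes, 0 of 4 for adipocytes, 0 of 7 for macrophages and 0 of 3 for neutrophils passed in this comparison in limma. An unadjusted p was under 0.05 for 1 adipocyte and 2 neutrophil markers and for 0 of the other markers of these lists. With slide as a block, 0 of 5 hepatocyte, 0 of 6 adipocyte, 0 of 7 macrophage and 0 of 3 neutrophil markers passed in limma. An unadjusted p was under 0.05 there for 0, 2, 0 and 1 of them. In that fit 0 of 4 B cell, 0 of 4 T and NK cell, 0 of 4 endothelial and 0 of 5 fibroblast and stellate markers passed. An unadjusted p was under 0.05 for 1, 1, 0 and 1 of them. These last lists are given for the block fit only. The part of cell types in the Nampt difference was not tested.

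At ZT1 the order of the genotypes was the other way round. Nampt stood at 2.10 and 2.35 on the 2 usable S714G liver arrays, against 1.60, 1.07 and 1.29 on the S714 arrays, and the difference was 0.91 ± 0.20 (limma, adjusted p = 0.00582). The spot on the third S714G array, replicate 1, carried an outlier flag and was left out. Its value in the deposited table was 1.52, inside the range of the S714 arrays, and with that table the difference was 0.67 ± 0.22 (limma, adjusted p = 0.0302). The S714G arrays of this comparison lay on slide 2 and the S714 arrays on slide 1, and with slide as a block the difference was 0.37 ± 0.31 (limma, adjusted p = 0.796).

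The change of Nampt over the day differed between the genotypes. Here and below, a change over the day is the ZT13 minus ZT1 difference. With 2 times sampled, a rhythm shifted in time and a rhythm of smaller swing cannot be told apart. In S714G liver the 3 ZT13 values averaged 2.29 and the 2 usable ZT1 values 2.22, a change of 0.065 ± 0.20 (limma, adjusted p = 0.937). With the deposited table, which keeps the flagged spot, it was 0.30 ± 0.22, with slide as a block -0.32 ± 0.30, and over 18 fits it ran from -0.32 to 0.30 and passed in 0. In S714 liver they averaged 3.68 at ZT13 and 1.32 at ZT1, a 5.13-fold higher signal at ZT13, with a log2 change of 2.36 ± 0.18 (limma, adjusted p = 1.37e-05). The test of the difference between these changes gave -2.29 ± 0.27 (limma, adjusted p = 4.66e-04). With slide as a block the S714 change was 1.57 ± 0.34 (adjusted p = 0.0446) and the difference of changes -1.88 ± 0.36 (adjusted p = 0.0171) in limma.

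**Figure D1:**
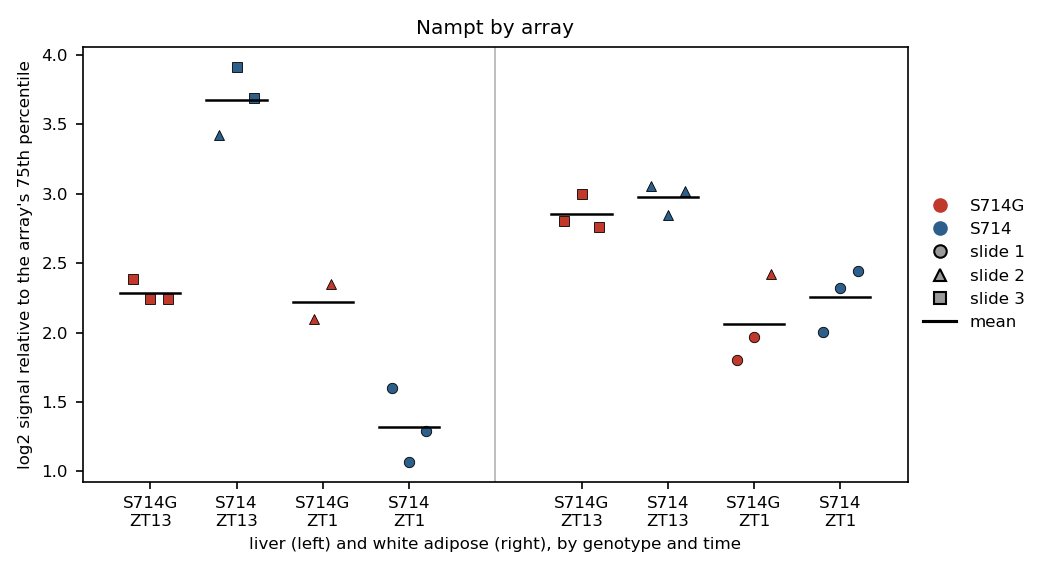
Nampt log2 signal relative to the array's 75th percentile (vertical axis) in liver and white adipose by genotype and time, 1 point per array, with the shape giving the slide and the line the group mean. In liver the S714G groups average 2.29 at ZT13 and 2.22 at ZT1 and the S714 groups 3.68 and 1.32, while in white adipose the ZT13 points of both genotypes lie above their ZT1 points. Liver S714G at ZT1 shows 2 points because the third spot was flagged by the scanner.

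In white adipose no genotype difference of Nampt was called. At ZT13 Nampt was at 2.80, 3.0 and 2.76 in S714G adipose, against 3.06, 2.85 and 3.02 in S714 adipose, and at ZT1 at 1.80, 1.97 and 2.42 in S714G adipose, against 2.0, 2.32 and 2.44 in S714 adipose. The genotypes overlapped at both times, with differences of -0.12 ± 0.22 at ZT13 and -0.19 ± 0.22 at ZT1 (limma, adjusted p = 0.9999 and 0.939). At ZT13 the S714G arrays lay on slide 3 and the S714 arrays on slide 2, so slide and genotype coincide there. The difference ran from -0.50 to 0.038 over 18 fits at ZT13 and from -0.37 to -0.061 over 19 fits at ZT1. It passed in 0 of them. In both genotypes every ZT13 value lay above every ZT1 value: the change was 0.79 ± 0.22 in S714G adipose (adjusted p = 0.0824) and 0.72 ± 0.22 in S714 adipose (adjusted p = 0.0468), of which limma called the second. No S714 array could be left out without losing that call, and with slide as a block the changes were 0.052 in S714G and 0.19 in S714 adipose.

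The tissues themselves were set against each other in a fit of all 24 arrays, a comparison added after the values were seen. The difference of changes between genotypes was -2.36 ± 0.40 in liver minus white adipose (limma, adjusted p = 0.00713), and Nampt was the 1 member of 10 that passed, beside 0.872% of all genes. Its value with slide as a block was -1.75 ± 0.41 and did not pass (limma, adjusted p = 0.11). The day change of S714 differed between liver and white adipose by 1.64 ± 0.27 (limma, adjusted p = 0.00336), for 1 member of 10, Nampt, beside 2.60% of all genes. The genotype difference at ZT13 differed by -1.26 ± 0.27 and did not pass (limma, adjusted p = 0.0738). Its adipose part set S714G arrays of slide 3 against S714 arrays of slide 2. Over 23 fits the value ran from -1.39 to -1.01 and passed in 2. For that contrast 0 of 10 members passed, beside 0.214% of all genes, and 2 had an unadjusted p under 0.05.

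The promoter windows of Nampt and of Sirt1 are shown because both genes are textbook parts of the loop between NAD and the clock, and because Nampt changed with genotype and time. Each runs from 250 bases before to 50 bases after the start in RefSeq, on build GRCm38.p6, on the strand of the gene. Capitals mark matches on either strand to the E-box CACGTG, which CLOCK and BMAL1 bind, or to AGGTCA, the core of sites of the ROR and REV-ERB receptors. TTATGTAA, the D-box of DBP and its relatives, was searched on both strands too, and no matches of different motifs overlapped in these windows.
Nampt (chr12:32820085-32820384, plus strand): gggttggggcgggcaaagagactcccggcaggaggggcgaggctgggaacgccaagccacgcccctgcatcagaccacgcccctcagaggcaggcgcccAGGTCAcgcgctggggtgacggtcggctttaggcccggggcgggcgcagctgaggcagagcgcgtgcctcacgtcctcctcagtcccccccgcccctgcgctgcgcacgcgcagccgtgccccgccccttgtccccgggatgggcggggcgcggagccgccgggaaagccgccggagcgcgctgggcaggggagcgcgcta
Sirt1 (chr10:63338986-63339285, minus strand): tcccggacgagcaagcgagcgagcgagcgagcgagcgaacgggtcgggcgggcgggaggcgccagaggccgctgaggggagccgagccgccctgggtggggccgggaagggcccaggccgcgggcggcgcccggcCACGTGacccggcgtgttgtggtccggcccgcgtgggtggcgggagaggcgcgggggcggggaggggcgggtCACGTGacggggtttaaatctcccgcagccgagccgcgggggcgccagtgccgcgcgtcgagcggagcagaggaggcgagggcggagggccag
The Sirt1 window held CACGTG at 2 places, with first bases at -115 and -43 from the start, and Parp1 held it at 1, with its first base at -49. The Nampt window held none, and it held AGGTCA at 1 place, as did that of Nmnat3, while the window of Sirt5 held it at 2. Of all 32851 windows of this length, 7.15% held CACGTG, 16.3% AGGTCA and 0.938% TTATGTAA, which was in no member's window. Windows were matched for 9 of the 10 members. Matches of letters are a description of these 300 bases and say nothing of binding.

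Nnmt, the methyltransferase that commits nicotinamide to excretion and consumes the methyl donor S-adenosylmethionine, was the other member lower in S714G liver at ZT13. It stood at 3.99, 3.68 and 3.41 in S714G liver, against 4.43, 5.10 and 4.61 in S714 liver, and no S714G value reached the S714 range. The difference was -1.02 ± 0.24, 2.03-fold lower (limma, adjusted p = 0.0438). This call was close to the threshold: it held in 9 of 19 fits, in 1 of the 6 that left out an array, and within slide 3 the value was -1.16 ± 0.23 (adjusted p = 0.0559). The dimmer Nnmt probe had a difference of -0.72 ± 0.26 (limma, adjusted p = 0.201). At ZT1 Nnmt was at 3.46, 4.13 and 3.89 in S714G liver and 4.48, 4.01 and 4.29 in S714 liver, and the groups overlapped (-0.43 ± 0.24, adjusted p = 0.156).

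Of the 10 members, 2 passed in liver at ZT13, Nampt and Nnmt, both lower in S714G, beside 3.02% of the 21842 genes tested, 1.51% lower. The values of the genotypes did not overlap for 7 members, beside 29.3% of all genes in either direction. In all 7 the S714G values were the lower ones, and the share of all genes in that direction alone was not counted. The mitochondrial deacetylase Sirt3 was the nearest of those that did not pass, at 4.03, 4.08 and 3.85 in S714G liver, against 4.32, 4.70 and 4.53 in S714 liver (-0.53 ± 0.15, limma, adjusted p = 0.0959). Sirt5, which removes succinyl and malonyl groups in mitochondria, stood at 0.71, 0.74 and 0.87 in S714G, against 1.37, 1.16 and 1.21 in S714 (-0.48 ± 0.25, adjusted p = 0.412). The median difference over the members was -0.35, against 0.019 over all genes. Nmnat1, the nuclear NMNAT, Nmnat3, the mitochondrial one, and Sirt1, a nuclear deacetylase, were at -0.34, -0.32 and -0.37 without passing. Sirt6, a chromatin deacetylase, Parp1, which attaches ADP-ribose chains at DNA breaks, and Cd38, a NAD glycohydrolase, were at 0.088, 0.071 and 0.15, and their genotypes overlapped. In simulated liver arrays with the same spread, 49 of 100 changes of 1 and 93 of 100 changes of 2 on the log2 scale passed.

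In liver at ZT1, 6 of 10 members passed, 4 higher and 2 lower in S714G, beside 45.4% of the 21841 genes tested, 17.9% higher and 27.5% lower. Sirt5 stood at 1.13, 1.41 and 1.54 in S714G, against -0.37, 0.50 and -0.61 in S714, and was 2.87-fold higher (1.52 ± 0.25, limma, adjusted p = 8.12e-04). Sirt1 stood at 0.89, 0.80 and 0.77 in S714G, against 2.16, 1.62 and 1.82 in S714, and was 2.07-fold lower (-1.05 ± 0.16, limma, adjusted p = 5.72e-04). In both genes the genotypes did not overlap, which was so for 6 members and for 52.4% of all genes. Nmnat1 stood at 2.14, 2.17 and 2.28 in S714G, against 1.07, 2.12 and 1.38 in S714 (0.67 ± 0.22). Parp1 stood at 1.09, 1.27 and 1.09 in S714G, against 0.64, 0.68 and 0.22 in S714 (0.64 ± 0.15). Sirt6 stood at 0.21, 0.15 and 0.26 in S714G, against 0.88, 0.60 and 0.92 in S714 (-0.60 ± 0.14), and its dimmer probe gave -0.51 ± 0.14. Nampt was the remaining member that passed.

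**Figure D2:**
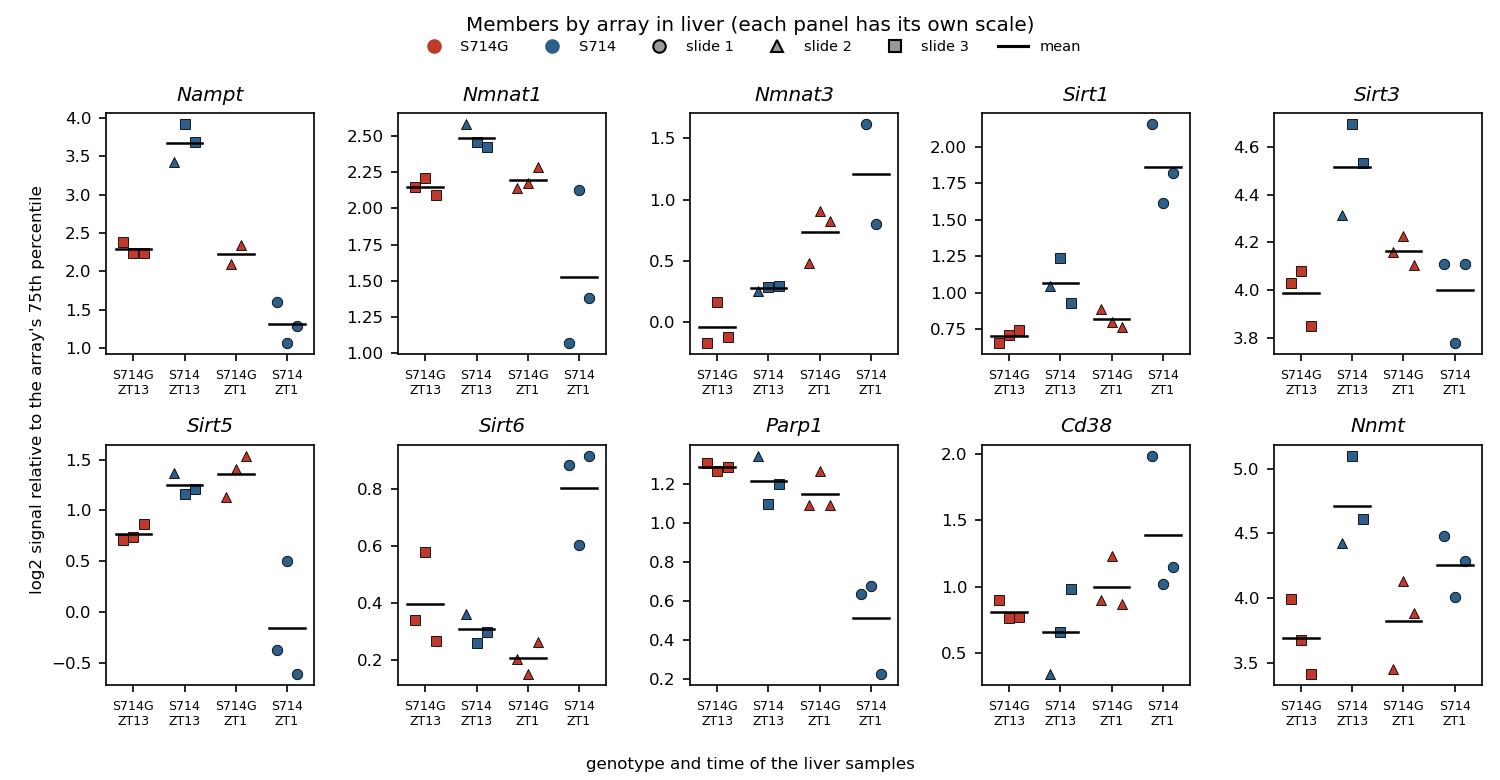
Log2 signal relative to the array's 75th percentile (vertical axis, a scale of its own in each panel) of the 10 members on the liver arrays, by genotype and time (horizontal axis), 1 point per array with the shape giving the slide and the line the mean. The S714 ZT1 arrays, all on slide 1, lie outside the range of the other 3 groups for Sirt1, Sirt5, Sirt6, Parp1 and Nampt, while for Nampt the S714 ZT13 arrays also sit above the S714G arrays.

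For Sirt1, Sirt5, Sirt6 and Parp1 the S714 ZT1 arrays lay outside the range of every other liver array, and they were also the liver arrays of slide 1. The same held for Nampt on the usable spots, at 1.07 to 1.60 on these arrays, against 2.10 or more on the other liver arrays. When slide was a block, 0 of the 10 members passed at ZT1, and the values of Sirt5 and Sirt1 were 0.79 and -0.18, while those of Nmnat1 (-0.42), Sirt6 (0.50) and Parp1 (-0.085) had the opposite sign. In liver, slide and genotype cannot be told apart at ZT1 without the adipose arrays. The step between slides 1 and 2 came from adipose S714G at ZT1. There Nmnat1 was at -0.42 and -0.58 on slide 1 and at 0.59 on slide 2. Summed hepatocyte markers ran from -0.30 to 6.20 on those adipose arrays, and their part in the block values was not tested. Cell type markers also moved in that contrast: 3 of 5 hepatocyte markers were lower in S714G and of the 4 adipocyte markers tested 3 were higher and 1 lower, with summed adipocyte levels of 3.87 to 4.0 in S714G liver, against 2.98 to 3.38 in S714 liver, and summed hepatocyte levels of 9.49 to 9.64 in S714G, against 9.99 to 10.25 in S714. Of 4 endothelial markers 1 was higher and 2 were lower, with summed levels of 4.0 to 4.05 in S714G liver, against 4.26 to 4.60 in S714 liver. In addition 1 of 7 macrophage markers was higher, and 1 of 2 B cell and 1 of 4 T and NK cell markers were lower. Their part in the members' differences was not tested.

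**Figure D3:**
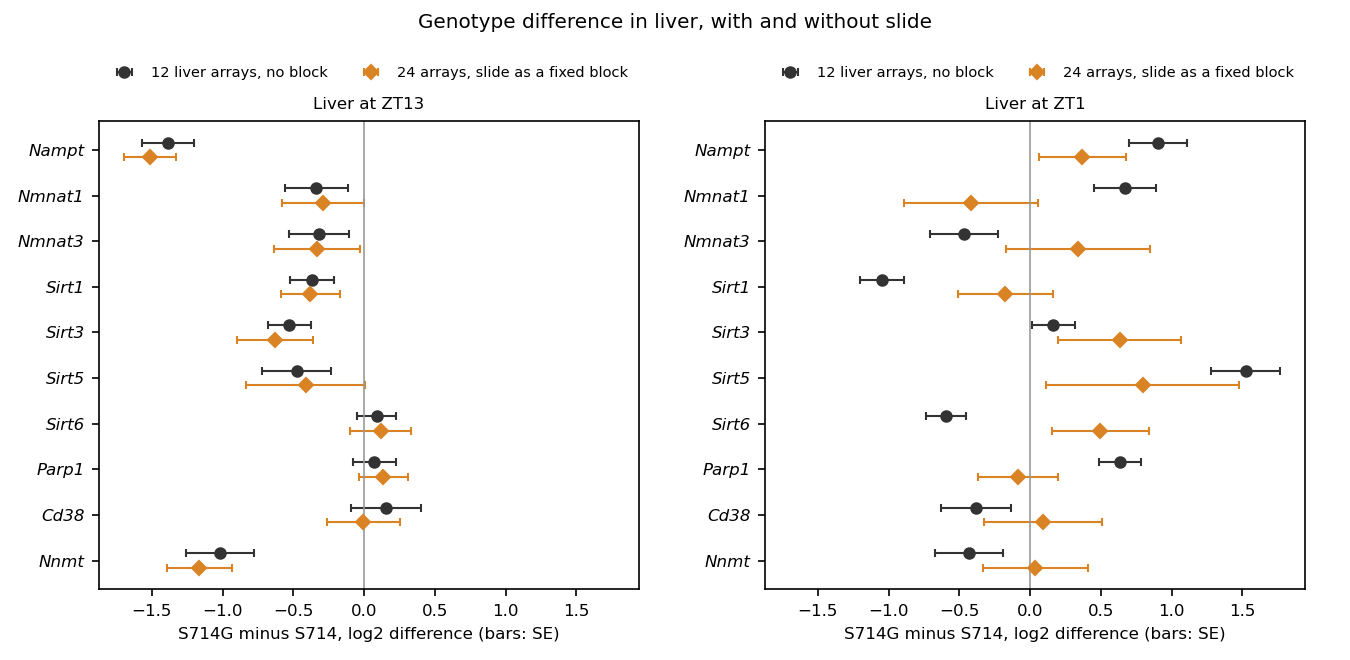
Log2 difference S714G minus S714 in liver (horizontal axis, bars are SE) of the 10 members at ZT13 (left) and ZT1 (right), from the 12 liver arrays without a block and from all 24 arrays with slide as a fixed block. At ZT13 both fits place Nampt at -1.39 and -1.51 and Nnmt at -1.02 and -1.16, while at ZT1 Nmnat1, Sirt6 and Parp1 change sign with the block.

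Over the day, no member passed in S714G liver, beside 1.99% of the 21840 genes tested in limma, and 2 members, Nmnat3 (-0.78 ± 0.21) and Sirt5 (-0.59 ± 0.25), had an unadjusted p under 0.05. The values at the 2 times did not overlap for 5 members in S714G liver, beside 30.5% of all genes. In S714 liver 9 of the 10 members passed, all but Nnmt, with 5 higher at ZT13 and 4 lower, beside 51.2% of the 21843 genes tested, 21.3% higher and 29.9% lower. The times did not overlap for those 9 members, beside 55.1% of all genes. In S714 liver Sirt5 changed by 1.41 ± 0.25, Nmnat1 by 0.96 ± 0.22, Parp1 by 0.70 ± 0.15 and Sirt3 by 0.51 ± 0.15, all higher at ZT13. Nmnat3 changed by -0.93 ± 0.24, with 1 flagged ZT1 spot left out, Sirt1 by -0.80 ± 0.16, Cd38 by -0.73 ± 0.25 and Sirt6 by -0.49 ± 0.14, all lower at ZT13. Adjusted p values of these 8 in limma ran from 8.54e-04 for Sirt5 to 0.0298 for Cd38. With slide as a block Nampt was the 1 member that passed, and Nmnat1, Sirt1 and Sirt6 took the opposite sign, at -0.036, 0.047 and 0.65. All ZT13 arrays of S714 liver lay on slides 2 and 3 and all ZT1 arrays on slide 1. All 3 neutrophil markers tested were also lower at ZT13 in S714 liver, with summed levels of -1.58 to -0.83 at ZT13, against 0.40 to 0.85 at ZT1, and 3 of 4 endothelial markers were lower, with summed levels of 3.51 to 3.98 at ZT13, against 4.26 to 4.60 at ZT1. Of 7 macrophage markers 1 was higher and 3 were lower, and of 4 adipocyte markers 2 were higher and 1 lower. Lower at ZT13 were also 2 of 4 T and NK cell, 1 of 2 B cell and 1 of 5 hepatocyte markers. Their part was not tested.

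The changes over the day differed between genotypes in liver for 6 members, beside 31.2% of the 21840 genes tested. After Nampt the largest was Sirt5, at -2.0 ± 0.35 (limma, adjusted p = 0.00246), whose signal was lower at ZT13 than at ZT1 in S714G (-0.59, not called) and higher in S714. Nmnat1 (-1.01 ± 0.31) and Sirt3 (-0.69 ± 0.22) had negative differences of change, Sirt1 (0.68 ± 0.22) and Sirt6 (0.68 ± 0.20) positive ones. Their adjusted p values in limma lay between 0.024 for Sirt6 and 0.038 for Sirt1. With slide as a block Nampt was again the 1 member that passed, Sirt5 was at -1.21 and Sirt3 at -1.26 without passing, and Nmnat1, Sirt1 and Sirt6 took the opposite sign. In a fit of the 8 groups without slide, 2 members passed. The difference of changes was also called for 2 of 4 adipocyte markers, both negative, and for 2 of 4 T and NK cell and 1 of 2 B cell markers, all positive, and their part was not tested.

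**Figure D4:**
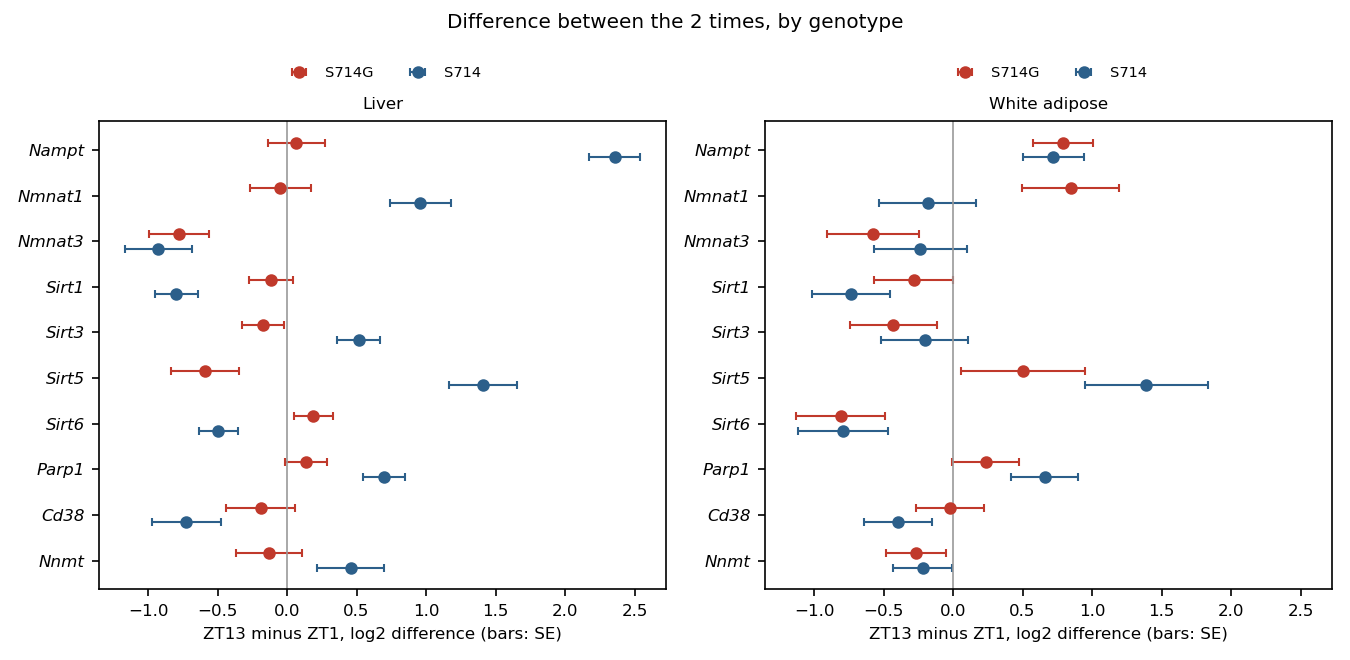
Log2 difference ZT13 minus ZT1 (horizontal axis, bars are SE) of the 10 members in S714G and S714 mice, in liver (left) and white adipose (right). In liver the change of Nampt was 0.065 in S714G and 2.36 in S714, and in white adipose it was 0.79 in S714G and 0.72 in S714.

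The clock genes give the setting of these changes. In liver at ZT13 Arntl, which encodes BMAL1, was at 3.91 and Dbp, a clock output factor, at -3.59 in S714G minus S714, and at ZT1 they were at -2.73 and 3.20. Per2, a repressor, was at -0.79 at ZT13 (not called) and 2.70 at ZT1, and Nr1d1, the repressor REV-ERB alpha, at 0.25 (not called) and 1.01. When slide was a block the ZT1 differences were -3.45 for Arntl and 4.27 for Dbp, which passed in limma, and 1.88 for Per2 and 1.17 for Nr1d1, which did not. In white adipose at ZT13 Arntl was at 5.53 (limma, adjusted p = 3.49e-05), with the S714 signal well above background on 2 of 3 arrays. At ZT1 that fit called 0 of the 23380 genes tested in white adipose, clock genes and members included. When slide was a block, 2 of the 4 clock genes passed between genotypes in white adipose at ZT13 and 4 of 4 at ZT1. The members called there were 0 at ZT13 and 1 at ZT1.

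In white adipose, 0 of the 10 members passed between genotypes at ZT13, beside 0.0428% of the 23379 genes tested, and 0 at ZT1, beside 0% of 23380. With limma's unadjusted p, 0 members at ZT13 and 1 at ZT1 were under 0.05. Differences at ZT13 lay between -0.23 for Sirt5 and 0.45 for Cd38, whose values were 1.37, 1.17 and 1.21 in S714G adipose, against 0.65, 0.96 and 0.79 in S714 adipose. The Cd38 groups did not overlap, which was so for 2 members and for 25.3% of all genes. At ZT1 Nmnat1 was at -0.42, -0.58 and 0.59 in S714G adipose, against 1.17, 1.23 and 0.087 in S714 adipose (-0.97 ± 0.35, limma, adjusted p = 0.551), and the groups overlapped, as they did for all 10 members at ZT1, beside 6.78% of all genes without overlap. Under the slide block this difference was -1.33 ± 0.29 and passed (adjusted p = 0.048), and within slide 1 it was -1.33 ± 0.42 (adjusted p = 0.78). Adipose S714G at ZT1 is the only group on both slides 1 and 2, so these are the same estimate with different spreads. Over all genes that block called 0.609% in this comparison. In the fit without it 0 of 5 hepatocyte markers passed and 4 had an unadjusted p under 0.05, and their summed level ran from -0.30 to 6.20 in S714G adipose, against 6.25 to 8.58 in S714 adipose. Nmnat1 was itself 2.99-fold higher in liver than in white adipose, and the part of these markers in its difference was not tested. In simulated adipose arrays 17 of 100 changes of 1 and 59 of 100 changes of 2 on the log2 scale passed.

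Over the day, 0 of the 10 members passed in S714G adipose, beside 1.89% of the 23380 genes tested, and 1 passed in S714 adipose, Nampt, beside 15.0% of 23379, 6.19% higher at ZT13. Unadjusted p values in limma were under 0.05 for 3 members in S714G and 5 in S714 adipose. The times did not overlap for 1 member in S714G adipose, Nampt, beside 26.8% of all genes, and for 6 in S714 adipose, beside 50.3%. Sirt5 stood at 0.13, 0.052 and 0.31 at ZT13, against -0.73, -1.59 and -1.36 at ZT1 in S714 adipose, without overlap, and its change of 1.39 ± 0.44 did not pass (adjusted p = 0.0549). The change of Sirt6 was -0.81 ± 0.32 in S714G and -0.79 ± 0.32 in S714 adipose, and neither passed. When slide was a block, 0 members passed in either genotype or in the difference of changes, and the S714 changes of Sirt5 and Sirt6 were 0.66 and 0.30. The difference of changes between genotypes passed for 0 of 10 members in adipose, beside 0.124% of the 23379 genes tested, and 0 had an unadjusted p under 0.05. Macrophage markers moved over the day as well: 3 of 7 were lower at ZT13 in S714G adipose and 1 of 7 in S714 adipose (with an unadjusted p under 0.05 for 3 in S714G and 7 in S714), with summed levels of 4.09 to 4.70 at ZT13, against 5.67 to 6.60 at ZT1 in S714G, and 4.74 to 5.25 at ZT13, against 5.64 to 6.01 at ZT1 in S714. Neutrophil markers were lower for 2 of 3 in each genotype. The part of these cells was not tested.

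Between the tissues, 8 of the 10 members passed, 4 higher in liver and 4 lower, beside 75.4% of the 24308 genes tested, 41.9% higher and 33.5% lower. Sirt3 ran from 3.78 to 4.70 on the 12 liver arrays, against 0.71 to 1.82 on the 12 adipose arrays, and was 7.48-fold higher in liver (2.90 ± 0.12, limma, adjusted p = 3.33e-14). Nmnat1 (1.58 ± 0.15), Sirt5 (1.23 ± 0.19) and Parp1 (0.45 ± 0.10) were also higher in liver. Nmnat3 (-0.35 ± 0.15) and Sirt1 (-0.36 ± 0.11) were lower in liver, and with slide as a block neither passed. Nampt (-0.16 ± 0.10) and Cd38 (-0.17 ± 0.12) did not pass, and Nampt did with slide as a block (-0.31, adjusted p = 0.0112). The direction of the other 2 genes depended on the probe. Nnmt was lower in liver by its brighter probe (-0.73 ± 0.11) and higher by its dimmer one (1.15 ± 0.14), and Sirt6 was lower by its brighter probe (-0.77 ± 0.13) and higher by its dimmer one (0.27 ± 0.087), all 4 past the threshold in limma. Hepatocyte markers were present on the adipose arrays at the levels given above, and their part in the tissue differences was not tested.

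**Figure D5:**
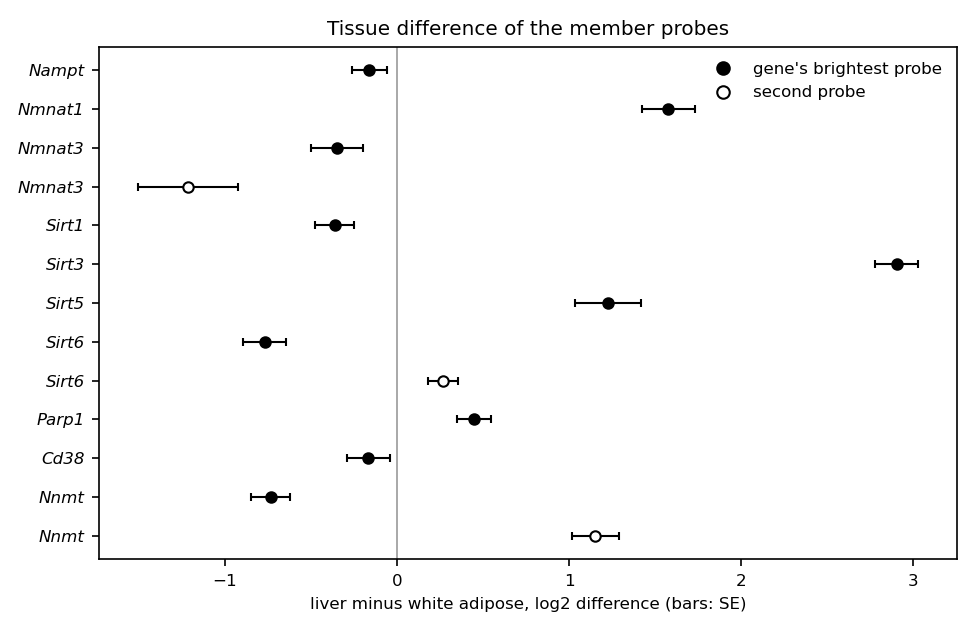
Log2 difference liver minus white adipose (horizontal axis, bars are SE) of the 13 member probes over the 4 genotype and time groups, with filled points for a gene's brightest probe and open points for its second. Sirt3 reaches 2.90, and the 2 probes of Sirt6 and of Nnmt lie on opposite sides of 0. The second Nmnat3 probe was well above background on 8 of 24 arrays, so its difference is not read.

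The rest of NAD metabolism was followed in 38 genes, of which 35 were tested (Ido1, Nmnat2 and Sarm1 did not pass the filter on dim probes). In liver at ZT13, 4 of 35 passed, 2 higher and 2 lower in S714G, at a median of -0.07, beside 3.02% of all genes. Slc25a51, the mitochondrial NAD transporter, was at 1.03 ± 0.19 in S714G liver (mean ± SD, n = 3), against 2.24 ± 0.20 in S714 liver, a difference of -1.22 ± 0.20 (limma, adjusted p = 0.00881). Nadsyn1, the NAD synthetase of the nicotinic acid route, was lower in S714G (-0.72 ± 0.14), and Pnp, a nucleoside phosphorylase that can split nicotinamide riboside (0.86 ± 0.14), and Nt5e, the ectoenzyme CD73 (1.61 ± 0.33), were higher. The S714 signal of Nt5e was well above background on 2 of 3 arrays. With slide as a block 3 of 35 passed in limma, 2 higher and 1 lower, beside 2.48% of all genes. In the list that holds Nadsyn1, Pnp and Nt5e, 1 of 6 then passed as higher in S714G and 0 as lower.

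In liver at ZT1, 8 of 35 passed, 5 higher and 3 lower in S714G, beside 45.4% of all genes. Nmrk1, the kinase that turns nicotinamide riboside into nicotinamide mononucleotide, was at 1.34 ± 0.089 in S714G, against -0.51 ± 0.51 in S714 (SD, n = 3 each), and it changed over the day by 0.14 in S714G liver (not called) and by 3.0 ± 0.26 in S714 liver. Like Nampt it was a gene of nicotinamide mononucleotide synthesis with a called difference of changes, -2.86 ± 0.37 (limma, adjusted p = 5.04e-04). Tnks, the ADP-ribosyl transferase tankyrase, was higher in S714G at ZT1 (2.47 ± 0.42), where its S714 signal was well above background on 1 of 3 arrays, as were Kynu, a kynurenine pathway enzyme (0.86), and Nadk, the NAD kinase (0.97). Over the day 0 of 35 passed in S714G liver in limma, where 3 had an unadjusted p under 0.05, beside 1.99% of all genes, and 13 in S714 liver, 6 higher and 7 lower at ZT13, beside 51.2% of all genes. The difference of changes passed for 6, beside 31.2% of all genes. When slide was a block, 0 of 35 passed in limma at ZT1, in the S714 change and in the difference of changes, beside 0.304%, 0.687% and 1.02% of all genes, and 2, 4 and 6 had an unadjusted p under 0.05. The ZT1 difference was then 0.014 for Nmrk1, 0.63 for Tnks, 0.97 for Kynu and 0.34 for Nadk, and the difference of changes of Nmrk1 was -1.01 (adjusted p = 0.526).

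In white adipose 0 of 35 passed between genotypes at either time in limma, also when slide was a block, with an unadjusted p under 0.05 for 0 at ZT13 and 10 at ZT1 (2 and 10 with the block). A total of 7 of 35 passed over the day in S714 adipose, 3 higher and 4 lower at ZT13, beside 15.0% of all genes, among them Tnks (2.01), Parp3 (-1.12), Pnp (1.07) and Mat2a, a synthase of S-adenosylmethionine (0.88). When slide was a block 0 of 35 passed there in limma, 4 had an unadjusted p under 0.05, and the changes of these genes were 0.16, -0.64, 0.48 and 0.77. Between the tissues 30 of 35 passed, 23 higher and 7 lower in liver, beside 75.4% of all genes, 41.9% higher and 33.5% lower. With the block 28 passed. All 8 tested genes of the de novo route from tryptophan were higher in liver, among them Kmo (5.61), Afmid (5.52), Qprt (7.31) and Ido2 (6.38). Hepatocyte markers on the adipose arrays ran at the levels given above, and their part was not tested.

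The genes whose log2 signals lay nearest to those of Nampt, after each gene was centred on its mean, were Gas2l3, Il12rb1, Slc16a12, Foxo1 and Slc38a2 over the 11 usable liver arrays, with root mean square distances of 0.249 to 0.303 among 13830 genes whose median distance was 0.945. Foxo1, a transcription factor of fasting metabolism, was at -0.92 at ZT13 and 0.98 at ZT1 in S714G minus S714, and Slc38a2, an amino acid transporter, at -1.50 and 0.68. Both were chosen for nearness to Nampt on these same arrays, so differences like those of Nampt follow from the choice. At ZT1 the genotypes lay on different slides, and these values are without a slide block. Over the 12 adipose arrays the nearest genes were Klf6, Zfand6, Pex19, Arsb and Etfdh, at 0.128 to 0.152 among 14678 genes with a median of 0.613.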

How the data were processed

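Total RNA of liver and white adipose was hybridised to 1-colour Agilent mouse arrays, 1 per sample. The authors deposited scanner intensity files, made with Feature Extraction 10.7.3.1 per the file headers, with probe positions on build mm9, and a table of log2 values. Deposited log2 values matched log2 of the processed intensity minus each array's 75th percentile within 0.01 for 100% of 55681 probes on every array, so scale and direction are known; array medians ran from -3.92 to -3.03. The same values were computed here from the processed signal, already background-subtracted by the scanner software. Control spots and outlier-flagged spots were left out, spots of a probe averaged, dim probes filtered, and each gene represented by its brightest probe. A probe was kept where it was well above background on every array of at least 1 group among the arrays fitted. A gene can thus enter through the group where its signal is high. The names of 26756 probes came from RefSeq accessions, 3824 from current symbols, 639 from synonyms and 24462 from the files. Group means were fitted with limma 3.58.1 (R 4.3.3 with the package data.table, version 1.17.8) on the 12 arrays of a tissue, or on all 24 between tissues, two-sided, with Benjamini-Hochberg adjustment over all genes at 0.05. Tables and figures used Python 3.11.15, pandas 2.3.3 and matplotlib 3.10.9. The fit was tested on simulated data. Alternatives were normexp (offset 50), quantile normalization, the values as deposited, other filters and probe rules, slide as a fixed or random block, fits within a slide, a replicate block and leaving out each array.

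The labels call the 3 samples of a group independent repeats. The p-values set a mean difference against the spread within groups, pooled over the groups of a fit and adjusted by limma with that of other genes. Named genes were all 10 members, up to 4 other NAD genes of lowest p among those that passed in each comparison, 5 genes nearest to Nampt per tissue and 4 clock genes. Members and lists were chosen with earlier results of these data known. Promoter sequences are RefSeq's on GRCm38.p6. The exon or UTR under a probe was not analysed here.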

Additional observations from a re-analysis of the deposited data

Results flagged for a closer look

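The genotypes differed in their change over the day in liver for 6 members by the test of that difference itself (limma over all genes), beside 31.2% of the 21840 genes tested. The values, S714G change minus S714 change on the log2 scale, were -2.29 for Nampt (adjusted p = 4.66e-04), -2.0 for Sirt5 (adjusted p = 0.00246), -1.01 for Nmnat1 (adjusted p = 0.0308), -0.69 for Sirt3 (adjusted p = 0.0319), 0.68 for Sirt6 (adjusted p = 0.024) and 0.68 for Sirt1 (adjusted p = 0.038). Nampt passed in all 24 fits made of this difference. With slide as a block the other 5 did not pass, at -1.21 for Sirt5, 0.13 for Nmnat1, -1.26 for Sirt3, -0.38 for Sirt6 and -0.20 for Sirt1.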

How the results depend on the processing

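Of 2960 values of members recomputed under alternatives, 2810 kept their side of the threshold, 111 no longer passed, 29 came to pass and 10 turned their sign where at least 1 of the compared fits called them. Of the 2810, 124 had the opposite sign with no call in either fit. With slide as a fixed block over 24 arrays, signs turned at liver ZT1 for Nmnat1 (-0.42), Sirt6 (0.50) and Parp1 (-0.085), in the S714 liver day change for Nmnat1 (-0.036), Sirt1 (0.047) and Sirt6 (0.65), and in the liver difference of changes for Nmnat1 (0.13), Sirt1 (-0.20) and Sirt6 (-0.38). Nnmt between tissues was 0.21 with the mean of its probes, which have opposite signs. The slide block left 0 members at liver ZT1 (6 without it), 1 in the S714 liver day change (9), 1 in the liver difference of changes (6), 0 in the S714 adipose day change (1), 1 at adipose ZT1 (0) and 0 in the tissue difference of the difference of changes (1). Over all genes it made 74 calls at liver ZT1, against 9917 without it, and 249 in the liver difference of changes, against 6806. At liver ZT13, 1 member passed in place of 2 with quantile normalization, no filter on dim probes, the mean of probes, the replicate block and within slide 3. In the liver difference of changes 2 passed with no filter and 2 with 24 arrays. The S714 adipose day change had 3 members with normexp, 2 with probes well above background on every array (flagged spots not counted against a probe, a choice made after seeing the data), 5 with 24 arrays, and 0 with no filter, the random slide block or the replicate block. The random slide block gave 1 member in the S714G liver day change (0), and 24 arrays gave 2 in the S714G adipose day change (0). The added tissue difference at ZT13 gave 1 with normexp and 1 with probes well above background on every array (0). The causes of these moves were not tested. Leaving out 1 array gave 1 to 2 members at liver ZT13 (1 without S714 replicate 2 or 3 or any S714G array), 5 to 7 at liver ZT1, 7 to 9 in the S714 liver day change and 0 in that of S714G, and 2 to 7 in the liver difference of changes (moved without S714G ZT1 replicates 2 or 3, S714 ZT13 replicates 2 or 3, or S714G ZT13 replicates 1 or 3). In adipose it gave 0 in the S714 day change without any of the 6 arrays, 0 to 3 in that of S714G (moved without ZT1 replicate 3), and 0 in the difference of changes and at either time. Between tissues it gave 7 to 8, and for the added comparisons 0 at ZT13, 1 to 2 for the S714 change (moved without adipose S714 ZT1 replicate 3) and 1 to 2 for the difference of changes (moved without that array or adipose S714G ZT1 replicate 3). Quantile normalization moved the median of all genes at liver ZT1 to -0.05, against -0.17 without it, and the calls there to 4523 higher and 4953 lower in S714G, against 3901 and 6016. Replicate numbers were not used as pairs in the main fits. Same-numbered deviations correlated at -0.13 to 0.12 in liver and -0.51 to 0.31 in adipose, against -0.17 to 0.19 and -0.33 to 0.46 for different numbers. Liver and adipose arrays of the same genotype, time and number correlated at -0.24 to 0.15. With 3 arrays per group these ranges cannot exclude pairing. The number of arrays and probes near background limit the precision.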
